A study of Mus musculus with 6 samples.

Results

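The genes described here are 10 components of the NF-kB pathway: the subunit genes Nfkb2, Rel, Rela and Relb, the inhibitor-type genes Nfkbia, Nfkbie and Nfkbiz, and the feedback regulators Tnfaip3, Birc3 and Traf1. They were taken by symbol from the 22180 genes that a probe set with a single gene symbol measured, and all 10 were found, each with 1 probe set. RNA came from cells sorted magnetically from mouse gliomas with an antibody against CD105 and then exposed to glioma-conditioned medium over 12 h. The labels call them tumor-associated endothelial cells, and each of the 6 arrays came from 1 mouse. Cells of 3 mice had the genotype Tie2-Cre,Pfn1fl/fl:Y129F (mice 1, 3 and 4), and cells of the other 3 had Pfn1fl/fl:Y129F without Cre (mice 6, 7 and 10), so that both groups shared the floxed Pfn1 alleles and the Y129F form. The promoter of Tie2 (Tek), which drives this Cre, is active in endothelial cells and also in blood-forming cells. The ages of the mice are not given in the sources used here, which describe no sort beyond CD105.

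NF-kB is a family of dimeric transcription factors. Inhibitory IkB proteins hold the dimers in the cytoplasm until receptors for TNF, interleukin-1 or bacterial products activate the IKK kinase complex, which marks IkB for breakdown and frees the dimers to enter the nucleus. A separate, slower route, started by receptors such as CD40 and the lymphotoxin receptor, processes the precursor encoded by Nfkb2 into a partner of RelB. NF-kB switches on many of its own inhibitors, so that the mRNAs of IkB proteins, of the deubiquitinase gene Tnfaip3 and of the ubiquitin ligase gene Birc3 are commonly read as signs of the pathway's activity. In endothelial cells the pathway drives leukocyte adhesion molecules and chemokines.

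Several features of the whole data set bear on these genes. Xist, the RNA of the silenced X chromosome, differed by -5.59 log2 between the groups (Tie2-Cre minus no Cre), and the Y-linked genes went the other way, so the groups also differ in the sex of the cells and genotype and sex cannot be told apart. Over all 22180 genes, limma called 12% at a Benjamini-Hochberg adjusted p under 0.05 (4.78% higher and 7.17% lower). At an unadjusted p under 0.05, 2362 genes were higher and 3162 lower. Of 16 endothelial markers, 1 was higher with Tie2-Cre (Flt1, mean log2 intensity 8.68 with Tie2-Cre and 7.57 without Cre) and 1 lower (the sorting antigen Eng, 11.76 and 12.05). Among the 14 without a call, Egfl7 was at 7.29 and 7.33, Cdh5 at 6.76 and 7.02, Pecam1 at 6.24 and 6.23, Cldn5 at 5.82 and 5.99 and Emcn at 4.28 and 4.27, and Ptprb differed by 0.02. Since the brightness of a probe set also depends on its sequence, the levels do not settle which cells were present. Pericyte and smooth muscle markers were higher in 6 of 12 and lower in 0 by limma (9 and 0 at an unadjusted p under 0.05), with a mean over the list of 9.78 to 10.21 per mouse with Tie2-Cre and 9.27 to 9.34 without Cre. Fibroblast markers were higher in 5 of 10 and lower in 1, with list means of 10.38 to 10.53 and 9.57 to 9.61. Macrophage and microglia markers were higher in 1 of 17 and lower in 3, with list means of 6.73 to 6.81 and 6.83 to 6.89. Markers of mesothelium and epithelium were higher in 0 of 10 and lower in 3 by limma (0 and 3 also at an unadjusted p under 0.05), with list means of 6.78 to 6.94 and 7.30 to 7.41. Markers of glioma, astrocytes and neural cells were higher in 3 of 11 and lower in 0 (also 3 and 0 unadjusted), and those of other leukocytes higher in 1 of 14 and lower in 1. The part of these cell type markers in the results that follow was not tested, and in bulk RNA fewer cells of a type cannot be told apart from less RNA per cell.

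NF-kB is known to feed back on several of these genes through DNA sites near their start sites, and stretches with letters like such a site are given here for the genes on which the results turn. RefSeq promoter windows (build GRCm38.p6, 250 bases before to 50 bases after a start site) were found for 8 of the 10 genes, with none for Relb and Nfkbiz. The loose pattern GGGNNNNNCC, searched on both strands, was present in a window of 7 of the 8 genes, but also in 53.5% of the 27025 genes with a window. The narrower pattern GGGNNNTTCC, every match of which is also a match of the loose one, was present in 5 of the 8 genes (Nfkb2, Rel, Nfkbia, Nfkbie and Tnfaip3) and in 6.31% of all genes. The narrower pattern was picked after the matches in these promoters had been seen, so its count is a description only. In the lines that follow, each read 5′ to 3′ on the gene's own strand, capitals mark the matches to GGGNNNTTCC on either strand (a match on the opposite strand reads GGAANNNCCC), and all bases lie before the start site.
Nfkbie (chr17:45555564-45555633, + strand): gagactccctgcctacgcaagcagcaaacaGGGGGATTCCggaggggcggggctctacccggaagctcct
Tnfaip3 (chr10:19015411-19015452, - strand): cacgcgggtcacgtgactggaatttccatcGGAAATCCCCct
Nfkbia (chr12:55492648-55492706, - strand): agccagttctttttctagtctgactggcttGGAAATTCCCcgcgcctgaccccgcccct
Nfkb2 (chr19:46304669-46304736, + strand): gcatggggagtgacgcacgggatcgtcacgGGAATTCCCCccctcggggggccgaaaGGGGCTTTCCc
Nfkb2, a later start site (chr19:46305680-46305744, + strand): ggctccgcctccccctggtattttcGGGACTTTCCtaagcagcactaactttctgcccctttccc
Rel (chr11:23771021-23771090, - strand): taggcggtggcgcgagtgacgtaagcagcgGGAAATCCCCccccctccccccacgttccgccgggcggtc
Not every match is shown: left out are a match at another Nfkb2 start site (chr19:46305445-46305498) and a match at another Tnfaip3 start site (chr10:19012014-19012083). A Tnfaip3 match that lies after the start site is left out as well. A match is not evidence of binding. The genes that carry one did not move alike: Nfkbie and Nfkb2 were higher with Tie2-Cre, Tnfaip3 was lower, and Nfkbia and Rel did not pass the test.

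With Tie2-Cre, the IkB epsilon gene Nfkbie rose 2.11-fold, Nfkb2 rose 1.38-fold and Traf1 1.23-fold, while Tnfaip3 fell 1.66-fold. The remaining 6 genes did not pass the threshold, which was a Benjamini-Hochberg adjusted p under 0.05 by limma over all 22180 genes. The calls thus numbered 3 higher and 1 lower among 10, beside 12% of all genes called (4.78% higher and 7.17% lower). Mice of one group all lay beyond those of the other in 7 of the 10 (5 with Tie2-Cre above and 2 with Tie2-Cre below), beside 31% of all genes. The median absolute change was 0.31 log2 in these genes and 0.11 over all genes. With 10 genes chosen with earlier results of these data known, these shares describe the genes and test nothing.

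Tie2-Cre mouse 4 was low beside mice 1 and 3 in these genes, though by little in Relb and Traf1. It had the lowest log2 intensity of its group in 10 of the 10, while over all genes it was the lowest in 32%. No Cre mouse 10 was the lowest of its group in 7 of the 10, beside 38.9% of all genes. The mean log2 intensity of the 10 genes was 9.15 in mouse 1, 9.22 in mouse 3 and 8.82 in mouse 4, and 8.91, 8.94 and 8.85 in the no Cre mice 6, 7 and 10. Tie2-Cre mouse 4 also had the highest mean of the pericyte and smooth muscle markers, at 10.21 against 9.84 in mouse 1 and 9.78 in mouse 3. Its excess was largest in the contractile gene Cnn1 (11.63 against 10.08 and 10.14), in Mcam (10.09 against 8.47 and 8.37) and in Myh11 (10.05 against 9.05 and 9.05). Mouse 4 was the highest of its group in 6 of these 12 markers and the lowest in 2, Pdgfrb and Notch3. Its endothelial list mean was 6.97, against 6.83 and 6.80, and whether this difference in markers has a part in its low NF-kB genes was not tested. Mouse 4 was singled out by its values in these same genes, and leaving it out raises their Tie2-Cre means. The calls without it therefore describe the genes and test nothing. Without mouse 4, the genes that passed numbered 5 of the 10 (4 higher and 1 lower), beside 9.72% of all genes (4.07% higher and 5.65% lower). Nfkbia and Birc3 then passed and Traf1 did not. Without Tie2-Cre mouse 3 instead, the changes were 0.085 for Nfkbia and 0.20 for Birc3, and neither passed. For the 10 genes, the value without mouse 4 is given below where the call changed or the size moved by over 1.5 times.

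**Figure D1:**
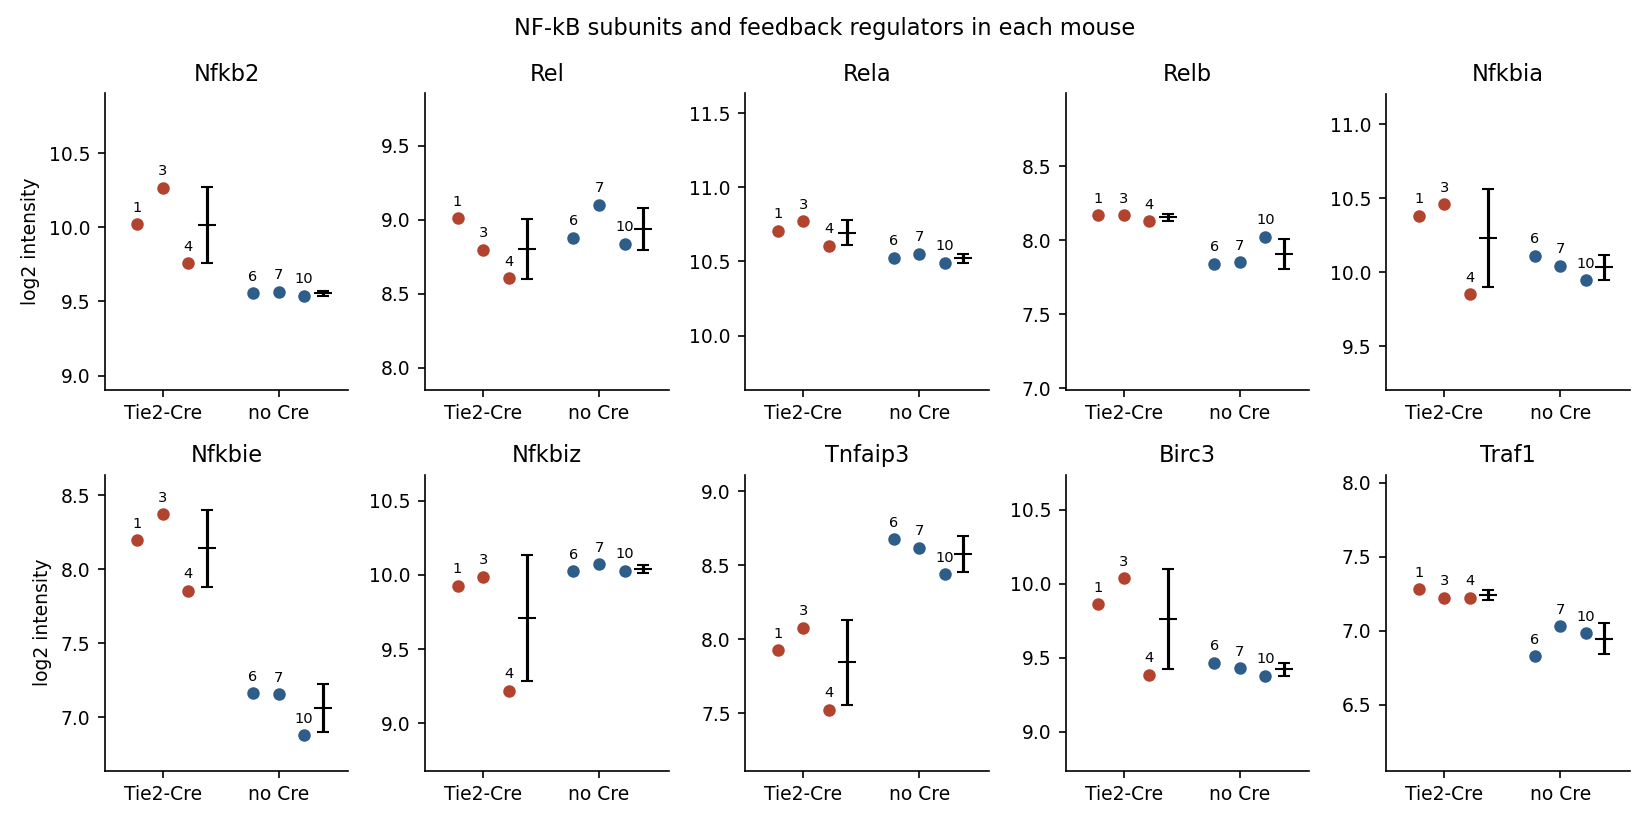
Log2 intensity (vertical axis, each panel spanning 2 log2 units) of the 10 genes in each mouse, with mouse numbers beside the points and the mean ± SD of each group (n = 3 mice) in black. Mouse 4 is the lowest of the Tie2-Cre mice in all 10 panels, and the groups are farthest apart for Nfkbie and Tnfaip3.

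Among the 4 subunit genes, Nfkb2 was the only one called. It encodes the precursor that the slower route cuts to its active form. Its log2 intensity was 10.02, 10.27 and 9.76 in Tie2-Cre mice 1, 3 and 4 and 9.56, 9.57 and 9.54 in no Cre mice 6, 7 and 10. All Tie2-Cre mice lay above all no Cre mice, which differed little among themselves (SD 0.014, against 0.25 with Tie2-Cre). The change was 0.46 (SE 0.12, limma adjusted p 0.0446). This call was lost when any mouse other than mouse 4 was left out (limma adjusted p 0.0853 to 0.123), with the probe sets without a single symbol added (0.110) and with arrays centred on their median (0.0513). It was kept without mouse 4, at a change of 0.59 (SE 0.092, limma adjusted p 0.00939).

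Relb encodes the usual partner of the processed Nfkb2 product. It stood at 8.17, 8.17 and 8.13 with Tie2-Cre and at 7.84, 7.85 and 8.02 without Cre. The groups did not overlap, but the change of 0.25 (SE 0.074) missed the threshold (limma adjusted p 0.0725), with a 95% confidence interval of 0.08 to 0.42. It passed when the variance was modelled with trend and robust settings (limma adjusted p 0.0497).

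Rela encodes the main activating subunit of the fast route. Values were 10.71, 10.77 and 10.61 with Tie2-Cre and 10.52, 10.55 and 10.49 without Cre. These groups did not overlap either, by a gap of 0.054 log2. The change was small at 0.17 (SE 0.071, limma adjusted p 0.176; 95% confidence interval 0.01 to 0.34).

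Rel encodes c-Rel, a subunit best known from lymphocytes. Its values were 9.01, 8.80 and 8.61 with Tie2-Cre and 8.88, 9.10 and 8.84 without Cre. The groups overlapped, and the change of -0.14 (SE 0.12, limma adjusted p 0.552) had a 95% confidence interval of -0.41 to 0.14. Without mouse 4 it was -0.04 (SE 0.11, limma adjusted p 0.893).

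Of the 3 inhibitor-type genes, Nfkbie was called and Nfkbia and Nfkbiz were not. Nfkbie, which encodes IkB epsilon, an inhibitor of Rela- and Rel-containing dimers, changed the most of the 10 genes. Its log2 intensity was 8.20, 8.37 and 7.86 in Tie2-Cre mice 1, 3 and 4 and 7.16, 7.16 and 6.88 in no Cre mice 6, 7 and 10. The lowest Tie2-Cre mouse lay 0.69 log2 above the highest no Cre mouse. The change was 1.07 (SE 0.14, limma adjusted p 0.00225), with a 95% confidence interval of 0.75 to 1.40, and its size was larger than that of 98.8% of all genes. It passed under each of the 14 alternative settings, from 0.96 to 1.22.

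Nfkbia encodes IkB alpha, the prototype inhibitor and one of the fastest feedback genes of the pathway. It stood at 10.38, 10.46 and 9.85 with Tie2-Cre and at 10.11, 10.04 and 9.95 without Cre. Mouse 4 lay below all no Cre mice and mice 1 and 3 above them, so the groups overlapped. The change was 0.20 (SE 0.15, limma adjusted p 0.488; 95% confidence interval -0.15 to 0.55). Without mouse 4 it was 0.39 (SE 0.082) and passed (limma adjusted p 0.0302).

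Nfkbiz encodes IkB zeta, an atypical nuclear IkB protein that helps NF-kB switch on a second wave of genes such as Il6 and Lcn2. Log2 intensities were 9.93, 9.99 and 9.22 with Tie2-Cre and 10.03, 10.07 and 10.03 without Cre. The Tie2-Cre mice all lay below the others, mice 1 and 3 by little and mouse 4 by much. The change of -0.33 (SE 0.18) did not pass (limma adjusted p 0.326) and was -0.09 (SE 0.071) without mouse 4.

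Of the 3 feedback regulators that act upstream of IKK, Tnfaip3 was lower, Traf1 was higher and Birc3 did not pass. Tnfaip3 encodes the ubiquitin-editing enzyme A20, a main brake on signalling from TNF, interleukin-1 and Toll-like receptors. Its log2 intensity was 7.93, 8.08 and 7.52 in Tie2-Cre mice 1, 3 and 4 and 8.67, 8.62 and 8.44 in no Cre mice 6, 7 and 10. All Tie2-Cre mice were lower, with a gap of 0.36 log2 between the groups. The change was -0.73 (SE 0.14, limma adjusted p 0.0134; 95% confidence interval -1.06 to -0.41). It was -0.57 (SE 0.099, limma adjusted p 0.0140) without mouse 4, and without no Cre mouse 7 it missed the threshold narrowly (-0.71, limma adjusted p 0.0519).

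Birc3 encodes the ubiquitin ligase cIAP2, which joins TRAF proteins at TNF receptors. Its values were 9.86, 10.04 and 9.38 with Tie2-Cre and 9.46, 9.43 and 9.38 without Cre. Mice 1 and 3 lay above all no Cre mice and mouse 4 among them. The change of 0.34 (SE 0.15) did not pass with all mice (limma adjusted p 0.219) and passed without mouse 4, at 0.53 (SE 0.084, limma adjusted p 0.0104).

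Traf1 encodes an adaptor that binds cIAP proteins and is itself an NF-kB target. Readings were 7.28, 7.23 and 7.22 with Tie2-Cre and 6.83, 7.03 and 6.98 without Cre. The Tie2-Cre mice were close together (SD 0.034) and all above the no Cre mice (SD 0.11). The change was 0.30 (SE 0.076, limma adjusted p 0.0418). That call was lost when any of the 6 mice was left out (limma adjusted p 0.0624 to 0.133; 0.31 and 0.0792 without mouse 4) and when the probe sets without a single symbol entered the adjustment (0.0983).

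**Figure D2:**
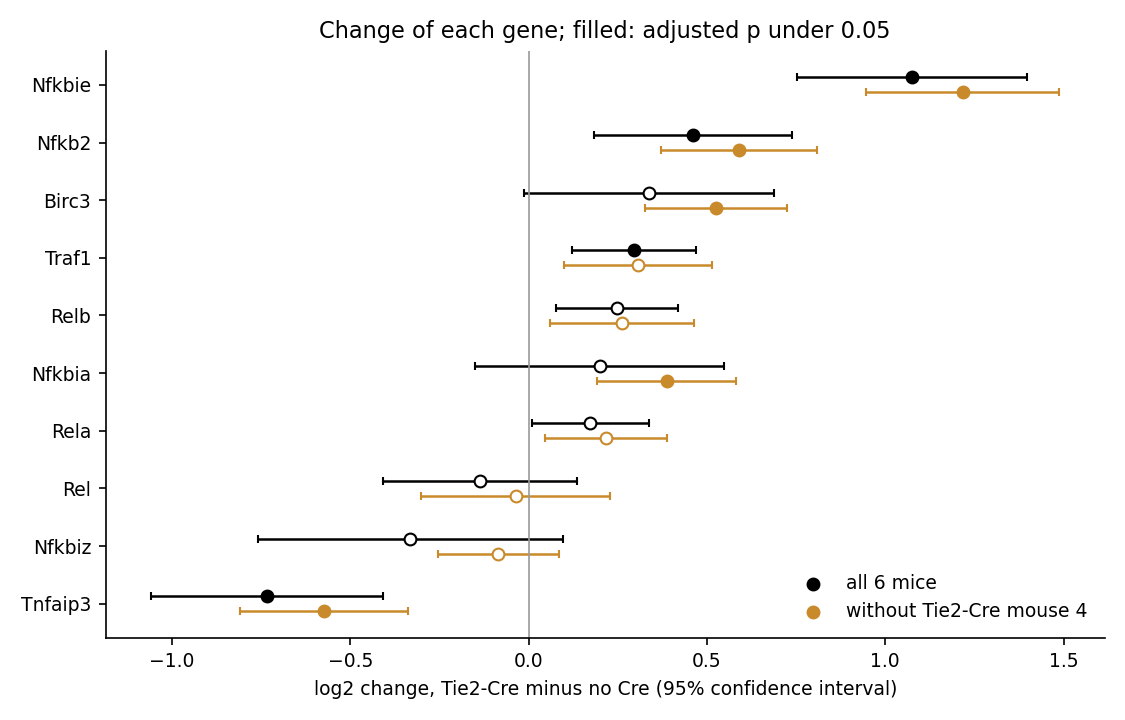
Log2 change of each gene (Tie2-Cre minus no Cre, horizontal axis) with its 95% confidence interval from limma, for all 6 mice (black) and without Tie2-Cre mouse 4 (ochre), filled where the adjusted p was under 0.05. Nfkbie (1.07) and Tnfaip3 (-0.73) mark the ends of the range, and Nfkbia and Birc3 turn from open to filled without mouse 4. Mouse 4 was singled out by its values in these same genes.

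Setting each gene against Nfkbia on the same array narrowed the spread of several of them within the Tie2-Cre group, since mouse 4 was low in both. Without Cre the spread narrowed for some genes, such as Tnfaip3 (SD 0.12 alone and 0.045 against Nfkbia). It widened there for others, such as Nfkb2 (SD 0.014 and 0.074). This comparison was added after the data had been seen, and 9 such differences were computed. For Nfkbie, the log2 difference from Nfkbia was -2.19, -2.09 and -2.00 in Tie2-Cre mice 1, 3 and 4 and -2.95, -2.89 and -3.07 in no Cre mice 6, 7 and 10. The spread within the Tie2-Cre group fell to an SD of 0.095, from 0.26 for Nfkbie alone. Nfkbie was thus higher relative to Nfkbia by 0.88 in the Tie2-Cre group, with no overlap. Tnfaip3 relative to Nfkbia was -2.46, -2.38 and -2.33 with Tie2-Cre and -1.44, -1.43 and -1.51 without Cre. It was lower by 0.93, with SDs of 0.064 and 0.045. For both, the exact permutation test, two-sided, gave p = 0.1, which is the lowest value this design of 3 and 3 can reach, and 0.15 after Benjamini-Hochberg adjustment over the 9.

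Nfkbiz lay 0.53 log2 lower relative to Nfkbia with Tie2-Cre (means -0.52 ± 0.098 and 0.01 ± 0.086, SD, n = 3 mice each), and Rel was 0.33 lower. For Birc3 the difference from Nfkbia was nearly the same in all mice of a group: it was -0.47 ± 0.050 with Tie2-Cre and -0.61 ± 0.039 without Cre (SD, n = 3 mice each). That is 0.14 higher with Tie2-Cre, without overlap. Nfkb2 was 0.26 higher relative to Nfkbia, also without overlap. Rela, Relb and Traf1 overlapped between the groups and had a wider spread with Tie2-Cre (SD 0.25 to 0.32), as mouse 4 was further below its group in Nfkbia than in these 3 genes. The exact permutation p was 0.1 for the 6 genes whose groups did not overlap and 0.8 to 1 for the other 3. The share of all genes that would not overlap when set against Nfkbia was not computed. The count of 6 therefore has no background and only describes these genes. Set directly against each other on the same array, Nfkbie minus Tnfaip3 was 0.27, 0.29 and 0.33 with Tie2-Cre and -1.51, -1.46 and -1.56 without Cre, a pair chosen after its values were seen. A ratio of this kind shows that the genes changed unequally and not which of them stayed level.

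**Figure D3:**
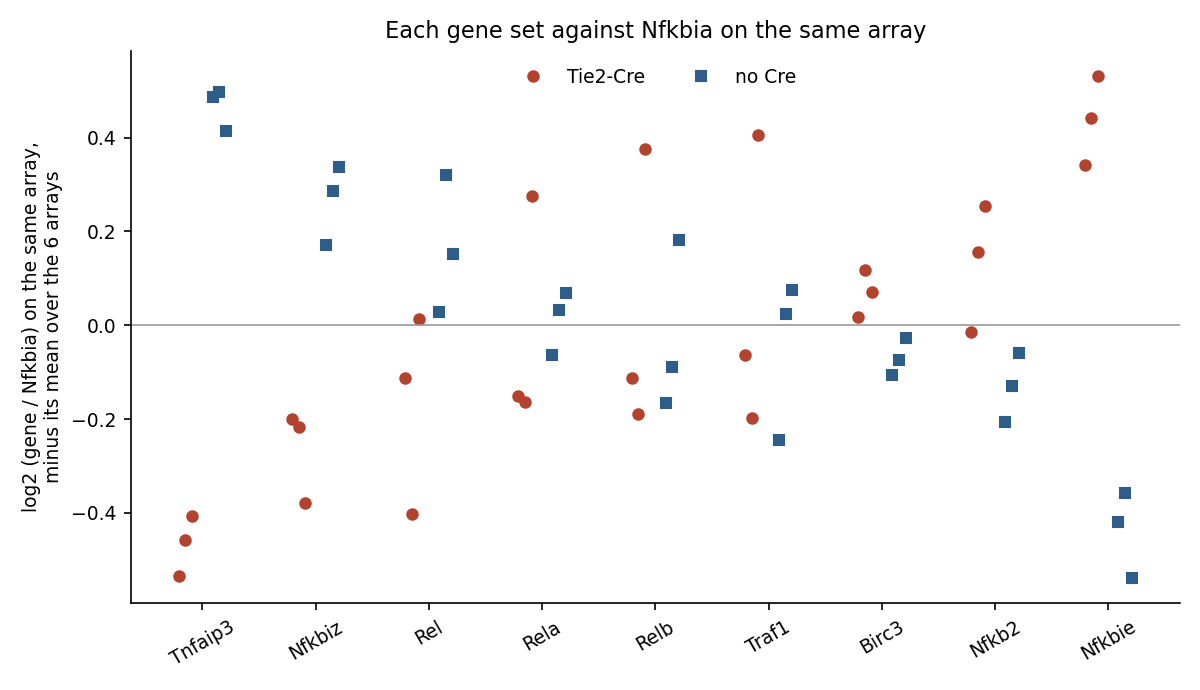
Log2 ratio of each gene to Nfkbia on the same array, minus the mean of that ratio over the 6 arrays (vertical axis), with 1 point per mouse (red circles Tie2-Cre, blue squares no Cre). The points of the groups are farthest apart for Tnfaip3 (0.93 lower with Tie2-Cre) and Nfkbie (0.88 higher), and overlap for Rela, Relb and Traf1.

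The other subunits and IkB genes on the list were Nfkb1, which was not analysed here, Nfkbib, Nfkbid, Bcl3 and Nfkbil1. Among the 4 measured, 1 was higher and 0 lower by limma (25%, beside 12% of all genes). The counts at an unadjusted p under 0.05 were also 1 and 0. The higher one was Nfkbib, which encodes IkB beta. Its log2 intensity was 9.88, 9.90 and 9.85 with Tie2-Cre and 9.47, 9.50 and 9.56 without Cre, a change of 0.37 (SE 0.065, limma adjusted p 0.00906). Mouse 4 was not apart from mice 1 and 3 in Nfkbib, and the call was kept when any mouse was left out. Bcl3, an IkB-like co-activator, showed the same low value in mouse 4 as Nfkbiz, at 9.68, 9.79 and 9.02 with Tie2-Cre and 9.77, 9.82 and 9.71 without Cre (-0.27, SE 0.18, limma adjusted p 0.431), and its change was -0.03 without mouse 4. Nfkbid changed by 0.04 (SE 0.064) and Nfkbil1 by 0.08 (SE 0.085), and neither passed.

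Of 26 receptors and ligands that feed the pathway, 3 rose, 3 fell and 20 did not pass, so that 23.1% were called beside 12% of all genes, and the median change was 0.05. The interleukin-1 receptor gene Il1r1 was at 10.68, 10.74 and 10.16 with Tie2-Cre and at 9.41, 9.34 and 9.15 without Cre, a change of 1.23 (SE 0.15, limma adjusted p 0.00184). The ligand gene Il1a, which encodes interleukin-1 alpha, was at 5.67, 5.52 and 5.40 with Tie2-Cre and at 7.53, 7.49 and 8.14 without Cre (-2.19, SE 0.17, limma adjusted p 0.000219). The other ligand gene, Il1b, named after its values were seen, did not pass (0.16, SE 0.063, limma adjusted p 0.165), with all Tie2-Cre mice above the no Cre mice. The co-receptor gene Il1rap was lower by a small amount (-0.29, SE 0.075), a call kept only without Tie2-Cre mouse 3 among the 6 fits that leave out a mouse.

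The Toll-like receptor genes Tlr2 (0.73, SE 0.18) and Tlr3 (0.49, SE 0.11) were higher. Their limma adjusted p values were 0.0354 and 0.0290, and both calls were lost when mouse 1, 3, 6 or 10 was left out (0.0550 to 0.115). Tlr4 (-0.09, SE 0.082) and Tlr6 (-0.16, SE 0.064), named after their values were seen, did not pass (limma adjusted p 0.553 and 0.162). In Tlr6 all Tie2-Cre mice lay below the no Cre mice. The TNF receptors differed: Tnfrsf1b, the inducible type 2 receptor, was at 9.63, 9.62 and 9.05 with Tie2-Cre and at 10.41, 10.48 and 10.36 without Cre (-0.99, SE 0.15, limma adjusted p 0.00485). Tnfrsf1a, the widespread type 1 receptor, named after its values were seen, did not pass (0.16, SE 0.080, limma adjusted p 0.280). Tnf itself was at 6.36 to 6.65 over the 6 mice and did not pass (0.11, SE 0.091, limma adjusted p 0.515).

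Most kinases and adaptors that carry the signal did not pass. Of 35 listed, 29 were measured, and limma called 2 of them higher, 0 lower and 27 neither, a share of 6.9% beside 12% of all genes. At an unadjusted p under 0.05 the counts were 5 higher and 2 lower. Myd88, the adaptor of interleukin-1 and Toll-like receptors, was at 10.49, 10.18 and 9.85 with Tie2-Cre and at 9.13, 9.27 and 9.54 without Cre (0.86, SE 0.17, limma adjusted p 0.0141). Ikbkg, which encodes the regulatory IKK subunit NEMO, was at 9.92, 10.04 and 10.18 with Tie2-Cre and at 9.63, 9.64 and 9.45 without Cre (0.48, SE 0.091, limma adjusted p 0.0130). The catalytic subunit gene Ikbkb did not pass, with values of 8.73 to 8.84 over all 6 mice (0.04, SE 0.065; 95% confidence interval -0.11 to 0.19). Map3k14, the kinase of the slower route, did not pass either (0.06, SE 0.075). Without no Cre mouse 7 the call of Myd88 was lost (limma adjusted p 0.0532).

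The 22 other measured brakes on the pathway held 1 higher and 2 lower genes and 19 without a call, a share of 13.6% called that is close to the 12% of all genes. Irak3, which blocks signalling from interleukin-1 and Toll-like receptors, was at 8.49, 8.43 and 7.78 with Tie2-Cre and at 8.97, 9.05 and 8.90 without Cre (-0.74, SE 0.17, limma adjusted p 0.0305). Tnip3, a partner of the Tnfaip3 product, was lower by 0.49 on the log2 scale (SE 0.12, limma adjusted p 0.0314), and its relatives Tnip1 (0.30, SE 0.16) and Tnip2 (0.02, SE 0.10), named after their values were seen, did not pass. Pdlim2, which promotes the breakdown of nuclear Rela protein, was higher by 0.50 (SE 0.13, limma adjusted p 0.0429). Each of these 3 calls was lost in at least 3 of the 6 fits that leave out a mouse (limma adjusted p up to 0.0989 for Irak3, 0.100 for Tnip3 and 0.129 for Pdlim2). Without Tie2-Cre mouse 4 the changes were -0.51 for Irak3, which kept its call, and -0.43 for Tnip3 and 0.36 for Pdlim2, which did not. With the unnamed and multi-symbol probe sets included, all 3 were lost as well, and with them those of Il1rap, Tlr2 and Tlr3 (limma adjusted p 0.0808 to 0.107 for the 6). The deubiquitinase gene Cyld did not pass, at -0.04 (SE 0.095).

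Known target genes of NF-kB moved both ways, like the feedback genes. With 59 measured, 10 rose, 14 fell and 35 did not pass, so that 40.7% were called beside 12% of all genes, and the median change was 0.07. The list was written with earlier results of these data known, several of its largest changes included, so that its count does not stand as support for a change of the pathway. The higher genes included the chemokines Ccl5, Ccl3 and Cx3cl1 and the cyclin gene Ccnd1. Ccl5 was at 12.10, 11.98 and 11.26 with Tie2-Cre and at 8.91, 9.04 and 8.57 without Cre, and Ccl3 at 9.96, 9.90 and 8.85 and at 6.74, 6.76 and 6.45. Both chemokines were thus lowest in mouse 4 among the Tie2-Cre mice, yet far above all no Cre mice. Their changes were 2.94 (SE 0.22) and 2.92 (SE 0.27). Cx3cl1, a membrane-bound chemokine, rose by 1.35 (SE 0.14) and Ccnd1 by 0.54 (SE 0.070). The 6 further higher genes, named after their values were seen, were Cxcl5, the selectins Sele and Selp, the transcription factor Irf1, Slc3a2 and Tnfaip2, with changes of 0.35 to 2.01.

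The lower target genes were led by Nos2, the inducible nitric oxide synthase, at 7.79, 7.80 and 6.96 with Tie2-Cre and at 10.52, 10.45 and 10.75 without Cre (-3.06, SE 0.22, limma adjusted p 0.000144). The hyaluronan-binding protein gene Tnfaip6 changed by -1.10 (SE 0.079), the pentraxin Ptx3 by -1.34 (SE 0.15) and Il1a, which is also on the list of ligands, by -2.19. The 10 others, named after their values were seen, were Saa3, Ier3, Vcam1, Lif, Myc, F3, Ptgs2, Pim1, Mmp9 and Ptges, with changes of -1.03 to -0.43. Leukocyte adhesion molecules stood on both sides of 0: Sele (0.88, SE 0.15) and Selp (0.78, SE 0.18) were higher, Vcam1 was lower (-0.78, SE 0.17), and Icam1 did not pass (0.51, SE 0.19, limma adjusted p 0.146).

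Several cytokines and chemokines known as NF-kB targets did not pass, all named after their values were seen. Il6 was at 12.81, 12.89 and 12.49 with Tie2-Cre and at 12.58, 12.58 and 12.72 without Cre (0.10, SE 0.11; 95% confidence interval -0.15 to 0.36). Cxcl1 (-0.02, SE 0.18), Ccl2 (0.12, SE 0.12) and Ccl20 (0.11, SE 0.17) overlapped between the groups as well. As with the 10 pathway genes, Tie2-Cre mouse 4 was the lowest of its group in 39 of the 59 target genes (66.1%, beside 32% of all genes). Without it, 13 of the 59 were higher and 13 lower, beside 4.07% and 5.65% of all genes.

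**Figure D4:**
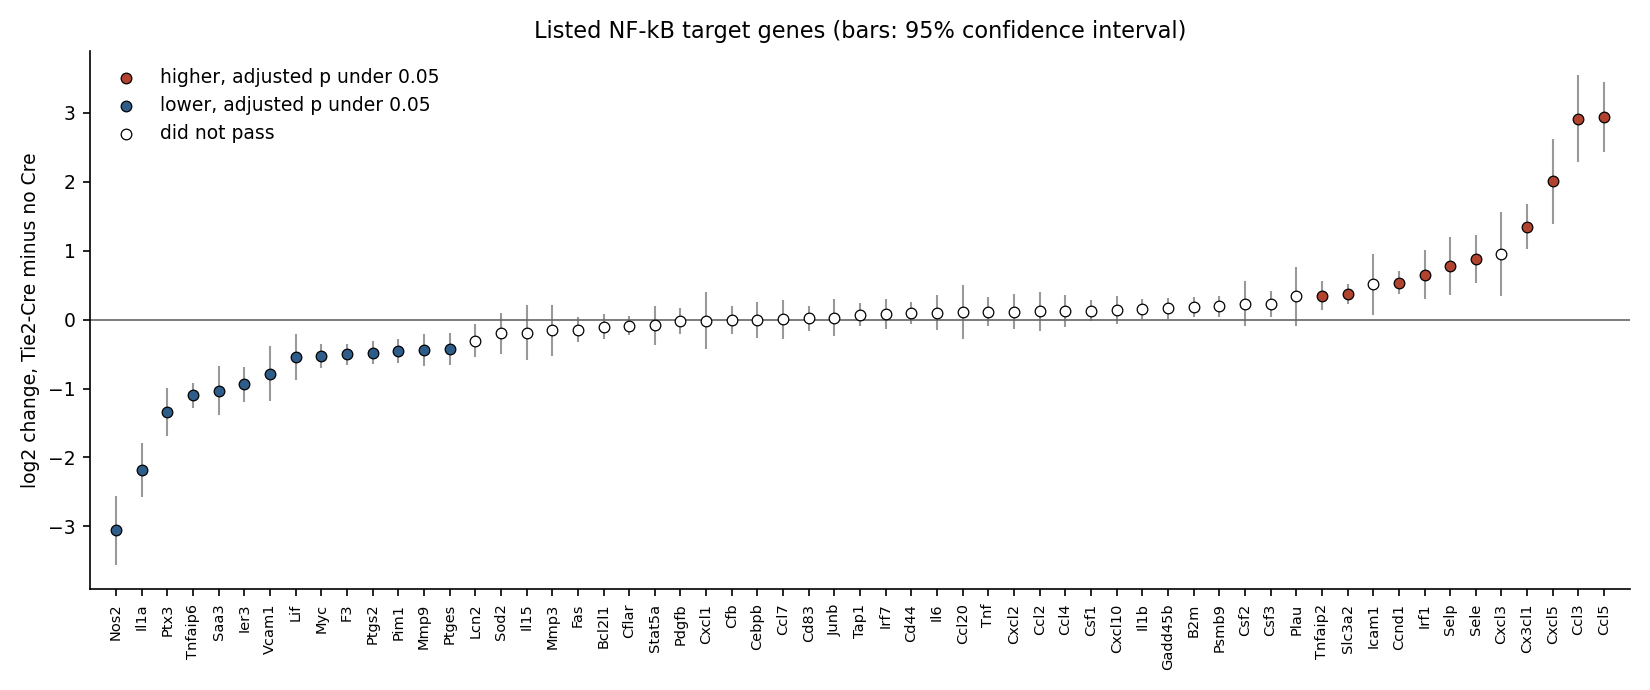
Log2 change (Tie2-Cre minus no Cre, vertical axis) of the 59 measured NF-kB target genes in order of size, with 95% confidence intervals from limma and colour for those with an adjusted p under 0.05. Genes past the threshold stand at both ends (10 higher, 14 lower), from Ccl5 at 2.94 to Nos2 at -3.06, with 35 between them that did not pass.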

How the data were processed

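RNA of 6 mice, 1 array each, was measured on Affymetrix Mouse Gene 2.0 ST arrays, per the series text. The authors deposited linear intensities after RMA (per the labels) in Affymetrix Expression Console (per the submitters' processing notes). Its version and the genome build are not given in the sources used here. RMA includes background correction and quantile normalization, which sets the arrays to 1 distribution. Detection calls were not part of the table used here, so genes near background are not marked as such. Changes of dim genes may be understated, and levels of different probe sets cannot be compared directly.

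The log2 of each value was taken. Of 41345 probe sets, 23521 had 1 gene symbol in the platform annotation, 1814 had several and 16010 were not listed. Where a gene had several, the probe set with the highest mean was used, which left 22180 genes. Groups were compared in R 4.3.3 by limma 3.58.1 (functions lmFit and eBayes, two-sided; files were read with data.table, version 1.17.8), with Benjamini-Hochberg adjustment over all genes and a threshold of 0.05. The fit was tested on simulated data in which 200 genes were changed. It recovered 22 of 67 changes of 0.5 log2 (32.8%), 59 of 67 of 1 log2 and 63 of 66 of 2 log2. Small changes can thus be missed. In the data 2652 genes were called, more than were changed in the simulation, so these shares are a rough guide. Precision is limited by the number of arrays, and the median SE over genes was 0.087 log2.

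The 10 genes, the 5 pathway lists and the marker lists were chosen with earlier results of these data known. Named genes were the 10, the other subunits and IkB genes, and up to 4 genes with the smallest p in each direction of each other list. The endothelial markers and Xist were part of the rule as well, but values are given for only some of those markers. Further genes, among them Tnf, Ikbkb, Map3k14, Cyld, Icam1 and Cnn1, fall outside this rule and were named after their values were seen. The alternatives were array weights, trend and robust settings of eBayes, a repeated quantile normalization, arrays centred on their median, averaging a gene's probe sets, a floor of 5 on the mean log2, adding the 17824 probe sets that lack a single symbol, an unadjusted p under 0.05 with at least a 1.5-fold change, and leaving out each mouse.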

Additional observations from a re-analysis of the deposited data

How the results depend on the processing

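No paired analysis was possible because the groups share no mouse number. Over the 14 alternatives, the direction of each of the 10 genes was kept, and Nfkbie, Rel, Rela and Nfkbiz stayed on their side of the threshold in all of them. With the probe sets without a single symbol added, Nfkb2 (0.46) and Traf1 (0.30) were no longer called, which left 1 of the 10 higher. Other brakes then numbered 0 higher and 0 lower, and receptors and ligands 1 higher. The share of all genes called at this setting is not given here, so these counts are not set against a background. Centring the arrays ended the call of Nfkb2 (0.46), and eBayes with trend and robust made that of Relb (0.25). With an unadjusted p under 0.05 and at least 1.5-fold, Nfkb2 (0.46) and Traf1 (0.30) failed on size, and the counts were 1 higher for the 10 genes, 1 higher for kinases and adaptors, 0 higher and 1 lower for other brakes, 0 higher for the other subunits and IkB genes, 7 lower for target genes, and 424 higher and 551 lower for all genes. Of kinases and adaptors, 1 was lower with a minimum mean log2 of 5, with a repeated quantile normalization and with eBayes with trend and robust. When each mouse was left out in turn, the changes ranged from 0.34 to 0.59 for Nfkb2, 0.24 to 0.34 for Traf1, 0.20 to 0.53 for Birc3, 0.085 to 0.39 for Nfkbia and -0.85 to -0.57 for Tnfaip3. The counts then ranged from 1 to 4 higher and 0 to 1 lower for the 10 genes, 1 to 3 higher and 0 to 1 lower for kinases and adaptors, 0 to 2 higher and 0 to 2 lower for other brakes, 1 to 3 higher for receptors and ligands, and 634 to 903 higher and 910 to 1253 lower for all genes. The cause of these shifts was not tested. Precision is limited by the number of arrays: the median SE over all genes was 0.087 log2, and of the 10 genes Nfkbiz had the largest SE (0.18).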
